A study of Homo sapiens with 4 samples.

Results

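The genes described here are 23 genes that respond to the transcription factor ATF4 and 18 cytosolic aminoacyl-tRNA synthetases, 41 genes in all, chosen by name from the 23615 genes of the deposited table. RNA-seq measured them in K562, a human cell line from chronic myeloid leukaemia that keeps erythroid features. The tested cells received 5 µM clofarabine in 0.005% DMSO (libraries C0 and C1) and the control cells received DMSO (libraries V0 and V1), both for 3 h. The drug is a purine nucleoside analogue. Once phosphorylated in the cell it blocks ribonucleotide reductase and DNA synthesis. The table names its conditions only C and V. These letters were read as clofarabine and vehicle, no label spells them out, and with the letters exchanged every direction below would turn round. Nothing in the labels tells whether the 2 samples of a group are separate cultures. The p-values therefore reflect spread between samples of the same group, which may be technical. The test also borrows that spread across all tested genes, so it is not the spread of a single gene's samples alone.

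ATF4 is the main effector of the integrated stress response. Kinases that sense amino acid shortage, unfolded protein in the endoplasmic reticulum, haem shortage or double-stranded RNA phosphorylate the initiation factor eIF2. General translation then slows, while upstream reading frames let the ATF4 mRNA be translated more, so ATF4 protein can change without its mRNA. ATF4 pairs with C/EBP proteins and activates genes of amino acid synthesis and uptake, many cytosolic tRNA synthetases, and stress genes such as DDIT3, CHAC1 and TRIB3. A tRNA synthetase joins an amino acid to its tRNA, the step that supplies the ribosome.

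The element through which ATF4 and its partners bind is often written TGATGNAAN. It was searched on both strands of the RefSeq promoter windows of GRCh38.p14, 250 bases before to 50 bases after each transcript start, and no other motif was searched. Windows were matched for 33 of the 41 members, and 12 of these (36.4%) held the letters in at least 1 window, against 4.45% of the 27305 genes with a window. The list joins genes named as ATF4-responsive with a family of enzymes, many of them known ATF4 targets. This share therefore describes the list and is not independent evidence. By class, 5 of 19 matched ATF4-responsive genes and 7 of 14 matched synthetases held it. A few are shown because they let the shared element be seen in both classes. Each is printed on the strand on which the element reads forward, 5′ to 3′, with the element in capitals and the coordinates of the printed stretch.
ASNS, chr7:97872459-97872485, minus strand: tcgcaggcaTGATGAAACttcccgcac
CHAC1, chr15:40953252-40953278, minus strand: tggcaggagTGATGCAACggcagggga
CEBPG, chr19:33374062-33374088, plus strand: cgcggcgtcTGATGCAACctgccggca
AARS, chr16:70289677-70289703, plus strand: taacttggcTGATGCAACtgcgagaaa
IARS, chr9:92293694-92293720, plus strand: gcacggaggTGATGCAACgcgctgaaa
MARS, chr12:57488054-57488080, minus strand: atccctcgcTGATGCAACcggaaccgg
TARS, chr5:33440957-33440983, minus strand: tggaccagcTGATGCAATcgaaaggcg
In CHAC1, CEBPG, AARS, IARS and MARS the 9 letters were identical, and ASNS and TARS differed from them within the free positions of the motif. The other members with the letters were HERPUD1, SLC3A2, CARS, GARS and NARS. A match is only a match of letters, and these data hold no binding measurement.

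The comparison asked which transcripts differed after 3 h of clofarabine. Fragment counts summed to between 8370550 and 23888755 per library, and C1 was the deepest. All 10 erythroid markers used to check the label were detected, while 3 of 10 markers of other cell types were at 0 in every library. Levels are given as CPM, which are fragment counts scaled by each library's total over the tested genes multiplied by its TMM scaling factor. The markers of other cell types summed to 87.1 to 88.3 CPM in clofarabine and 88.9 to 90.7 CPM in DMSO. Most of this came from EPCAM, at 70.8 to 75.2 CPM.

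None of the 39 tested members was called, that is, none had a Benjamini-Hochberg adjusted p under 0.05 in edgeR's quasi-likelihood test, which called 302 of 11761 genes (2.57%, with 1.54% as higher and 1.03% as lower). DESeq2 and limma-voom also called 0 of the 39 members, against 1.78% and 2.52% of all genes. At an unadjusted p under 0.05 there were 4 members, MTHFD2 with a positive log2 fold change and TRIB3, SLC6A9 and WARS with a negative one, against 14.2% of all tested genes. The smallest adjusted p of any member was 0.220, for MTHFD2. The other 2 members, NUPR1 and VLDLR, had too few fragments to be tested.

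Some changes of modest size were called among well-covered genes. Of the 2249 tested genes with a mean of at least 100 CPM, 141 (6.27%) were called. The smallest called log2 fold change among them was 0.25 in absolute size, which is not a limit of detection. All 18 synthetases reached that mean, but DDIT3, CEBPB, CEBPG, XBP1, CHAC1, TRIB3, STC2, HERPUD1, PHGDH, PSPH, SLC7A11 and SLC6A9 did not. Of the members, 7 of 18 synthetases and 8 of 21 ATF4-responsive genes had a positive log2 fold change, against 50.6% of all genes. The median log2 fold change was −0.064 for the ATF4-responsive genes and −0.027 for the synthetases, beside 0.0020 for all tested genes. Both medians depended on single libraries. That of the ATF4-responsive genes was −0.019 without C0 and −0.0037 without V1, and that of the synthetases was 0.010 without C0 and −0.054 without C1. The ATF4-responsive genes were spread more widely, with a median absolute log2 fold change of 0.13 and a median SE of 0.084 in that class. For the synthetases these were 0.053 and 0.066, and for all tested genes both were 0.12.

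**Figure D1:**
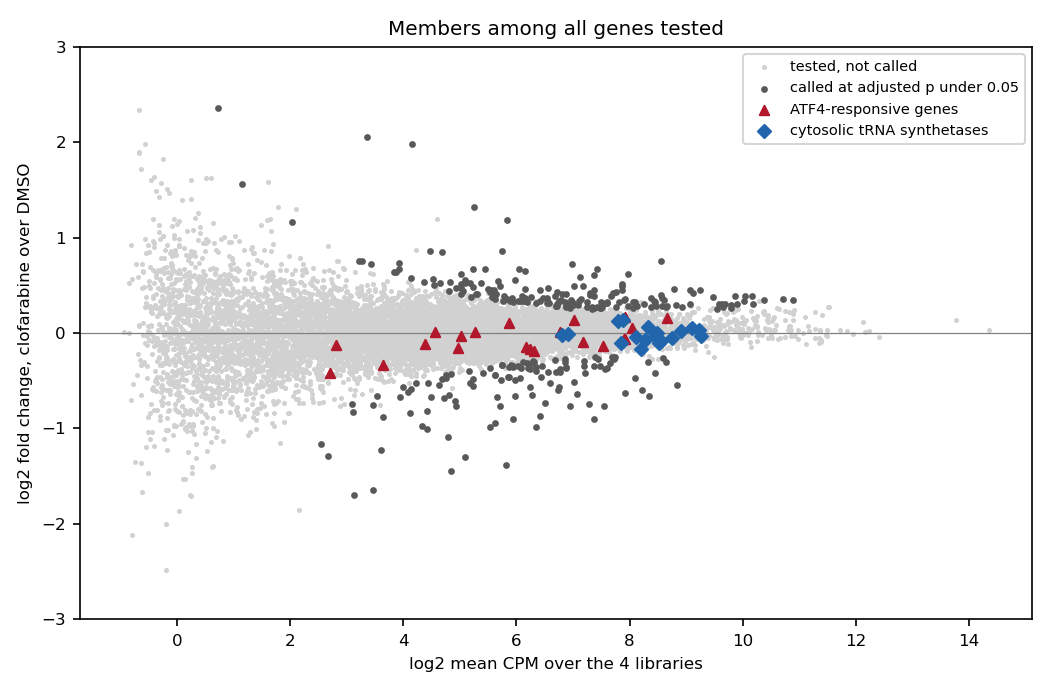
Log2 fold change, clofarabine over DMSO (vertical axis), against log2 mean CPM over the 4 libraries (horizontal axis) for all tested genes. Dark grey points are the 302 called genes, red triangles the 21 tested ATF4-responsive genes and blue diamonds the 18 synthetases, which lie along the zero line. The 5 genes beyond 3 on the vertical axis are not drawn.

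Among the stress transcription factors, ATF4 itself was measured at 385 CPM in C0 and 469.5 CPM in C1, against 368 CPM in V0 and 400 CPM in V1. C1 stood above both DMSO libraries and C0 lay between them, so the groups overlapped. The log2 fold change was 0.16 (SE 0.079, 95% interval −0.0094 to 0.32, edgeR adjusted p = 0.393). This value rested on C1. Without C0 the log2 fold change was 0.29 and ATF4 was called (edgeR adjusted p = 4.3e-04, where 5.36% of genes were called, 3.82% as higher), and without C1 it was 6.0e-04 (edgeR adjusted p = 0.999). It was 0.099 without V0 and 0.21 without V1, and not called in either case. ATF4 has a short transcript, with 14.7% of tested genes having a shorter one, and its level differed between C1 and C0 by 0.28 on the log2 scale. With a trend of each library on transcript length removed, its log2 fold change was 0.13 (edgeR adjusted p = 0.263).

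DDIT3, which encodes the pro-apoptotic factor CHOP, stood at 29.8 CPM in C0 and 34.2 CPM in C1, against 33.6 CPM in V0 and 32.1 CPM in V1. Here the clofarabine libraries lay on either side of the DMSO libraries, and the log2 fold change was −0.027 (SE 0.11, edgeR adjusted p = 0.951). DDIT3 and MARS overlap in the RefSeq annotation. Whether fragments were counted by strand is not known from the labels, and fragments may be shared between them. CEBPB, a C/EBP factor that partners ATF4, had 30.4 CPM in C0 and 28.6 CPM in C1, against 30.5 CPM in V0 and 35.1 CPM in V1. The clofarabine values were below both DMSO values, although C0 and V0 were nearly equal (log2 fold change −0.16, SE 0.11). The value was −0.25 without V0 and −0.056 without V1. For CEBPG, another such partner, the clofarabine libraries were above both DMSO libraries, with 61.0 CPM in C0 and 59.7 CPM in C1 against 55.9 CPM in V0 and 56.4 CPM in V1 (log2 fold change 0.10, SE 0.084).

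XBP1, which relays signals of unfolded protein through splicing of its mRNA, was lower in both clofarabine libraries, at 66.1 CPM in C0 and 75.5 CPM in C1, against 76.4 CPM in V0 and 82.8 CPM in V1. C1 and V0 were close, and the difference was not called (log2 fold change −0.17, SE 0.085, edgeR adjusted p = 0.396). The gene-level counts do not separate spliced from unspliced XBP1. NUPR1, a small stress-induced chromatin protein, had 2 fragments in C0 and 9 in C1, against 1 each in V0 and V1. With so few fragments no fold change is given.

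Precision varied among the stress effectors, with an SE of 0.27 for CHAC1 and of 0.077 for DDIT4. CHAC1, which degrades glutathione, had 4.52 CPM in C0 and 6.58 CPM in C1, against 4.95 CPM in V0 and 9.90 CPM in V1. The DMSO libraries differed from each other by 1.00 on the log2 scale, more than the fitted log2 fold change of −0.42 (SE 0.27, 95% interval −0.98 to 0.14, edgeR adjusted p = 0.539). Without V1 the log2 fold change of CHAC1 was 0.19, so its direction rested on that library. It was −0.21 without C0, −0.75 without C1 and −0.80 without V0, never called.

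TRIB3, a pseudokinase that restrains ATF4 and AKT, was lower in both clofarabine libraries. It stood at 74.4 CPM in both C0 and C1, against 80.5 CPM in V0 and 88.6 CPM in V1. The log2 fold change was −0.19 (SE 0.079, 95% interval −0.35 to −0.023, edgeR adjusted p = 0.277). PPP1R15A encodes GADD34, which directs the dephosphorylation of eIF2. Its level was 126 CPM in C0 and 144 CPM in C1, against 127 CPM in V0 and 120.2 CPM in V1. C1 was highest and C0 lay between the DMSO libraries, and the log2 fold change was 0.13 (SE 0.076, edgeR adjusted p = 0.468). It was 0.22 without C0 and 0.031 without C1, not called in either case.

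DDIT4, also called REDD1, inhibits mTORC1. It had 103 CPM in C0 and 116 CPM in C1, against 106 CPM in V0 and 111 CPM in V1. Its clofarabine libraries enclosed the DMSO libraries, and the log2 fold change was 0.016 (SE 0.077, 95% interval −0.14 to 0.18, edgeR adjusted p = 0.962). HERPUD1, a factor of endoplasmic-reticulum-associated degradation, gave a log2 fold change of 0.012 (SE 0.098), and the secreted glycoprotein gene STC2 one of −0.13 (SE 0.24). VLDLR, a lipoprotein receptor, had 0 fragments in C0 and 5 in C1, against 1 in V0 and 0 in V1, and was not tested.

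**Figure D2:**
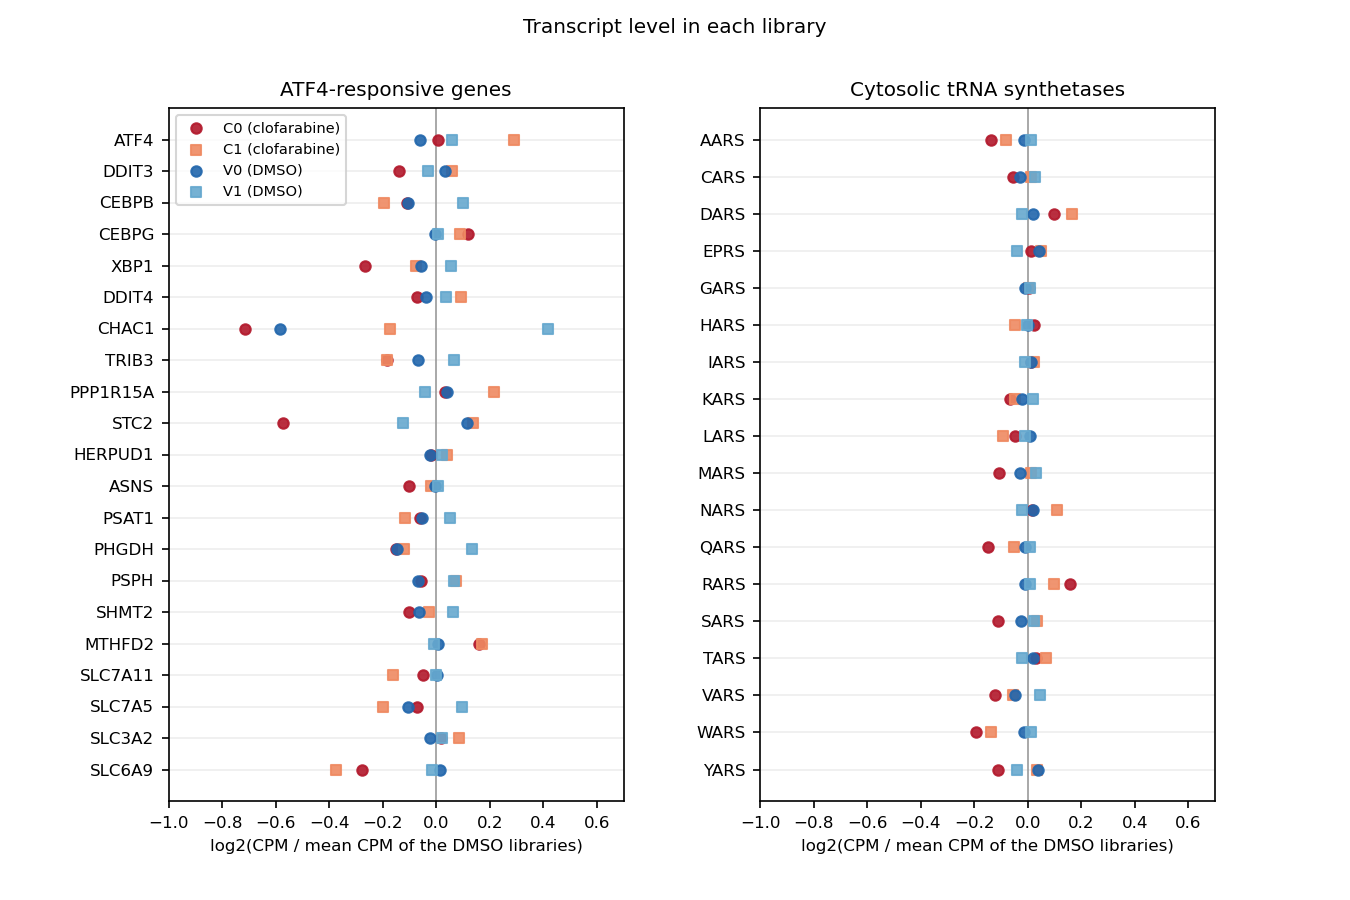
Level of each tested member in each library, as log2 of its CPM over the mean CPM of the DMSO libraries (horizontal axis). Red and orange are C0 and C1 (clofarabine), dark and light blue V0 and V1 (DMSO). The widest spread is that of CHAC1, and the synthetases stay close to the line at 0.

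Of the 10 genes of amino acid synthesis and transport, 3 had a positive and 7 a negative log2 fold change, with a median of −0.078. ASNS, asparagine synthetase, is a classic ATF4 target in amino acid shortage. Its level was 228 CPM in C0 and 241 CPM in C1, against 243.5 CPM in V0 and 245 CPM in V1. Both clofarabine values were below both DMSO values by a small margin, and the log2 fold change was −0.059 (SE 0.065, 95% interval −0.19 to 0.076, edgeR adjusted p = 0.762). In fold terms that interval runs from 0.874 to 1.05.

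The serine pathway runs from PHGDH through PSAT1 to PSPH, and SHMT2 and MTHFD2 carry the resulting one-carbon units through mitochondrial folate. PHGDH had 67.6 CPM in C0 and 68.9 CPM in C1, against 67.7 CPM in V0 and 82.2 CPM in V1. V1 alone stood apart, and the log2 fold change was −0.14 (SE 0.089), or 0.0052 without V1. PSAT1 had a log2 fold change of −0.091 (SE 0.069), PSPH one of 0.010 (SE 0.13) and SHMT2 one of −0.064 (SE 0.068). MTHFD2 was the member with the largest positive value. It stood at 256 CPM in C0 and 258 CPM in C1, against 231 CPM in V0 and 228 CPM in V1. The replicates agree closely and the groups do not overlap, but the log2 fold change of 0.17 (SE 0.064, 95% interval 0.032 to 0.30) did not pass the correction (edgeR adjusted p = 0.220).

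Among the transporters, SLC7A5 and SLC3A2 form the heterodimer that imports large neutral amino acids, and SLC7A11 pairs with SLC3A2 to import cystine. SLC7A5 had 185 CPM in C0 and 169 CPM in C1, against 181 CPM in V0 and 208 CPM in V1 (log2 fold change −0.14, SE 0.074, edgeR adjusted p = 0.428). The groups overlapped, and the log2 fold change was −0.23 without V0 and −0.037 without V1. SLC3A2 gave a log2 fold change of 0.053 (SE 0.065) and SLC7A11 one of −0.11 (SE 0.13). The glycine transporter SLC6A9 was lower in both clofarabine libraries, at 11.5 CPM in C0 and 10.7 CPM in C1, against 14.0 CPM in V0 and 13.7 CPM in V1. At this low level its log2 fold change of −0.33 had an SE of 0.16 and a 95% interval of −0.65 to −0.0058 (edgeR adjusted p = 0.340).

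The 18 cytosolic synthetases stood at nearly equal levels in both groups. Their summed level was 6098 CPM in C0 and 6326 CPM in C1, against 6282 CPM in V0 and 6284 CPM in V1. On this TMM-scaled measure the clofarabine libraries lay on either side of the DMSO libraries. With library size only, the median log2 fold change of the synthetases was −0.064, and that of all genes −0.035. With TMM scaling, fitted log2 fold changes ran from −0.16 for WARS to 0.13 for DARS. The 95% intervals of all 18 together reached from −0.30 to 0.27, which is 0.813-fold to 1.21-fold. Each synthetase was measured at 109 CPM or more in every library.

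At the low end, WARS, the tryptophanyl-tRNA synthetase, had 270.3 CPM in C0 and 282 CPM in C1, against 307 CPM in V0 and 312 CPM in V1. The groups were separate, and the log2 fold change was −0.16 (SE 0.065, 95% interval −0.30 to −0.031, edgeR adjusted p = 0.226). AARS, which charges the alanine tRNA, had 345 CPM in C0 and 359 CPM in C1, against 376 CPM in V0 and 383 CPM in V1. QARS, which charges that for glutamine, stood at 216 CPM in C0 and 231 CPM in C1, against 238 CPM in V0 and 241 CPM in V1. Both were lower in both clofarabine libraries, with log2 fold changes of −0.11 (SE 0.065, edgeR adjusted p = 0.500) and −0.10 (SE 0.066, edgeR adjusted p = 0.557).

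At the high end, DARS, the aspartyl-tRNA synthetase, had 240.1 CPM in C0 and 251.5 CPM in C1, against 227.5 CPM in V0 and 221 CPM in V1. RARS, which charges the arginine tRNA, had 238 CPM in C0 and 228 CPM in C1, against 211 CPM in V0 and 214 CPM in V1. Both were higher in both clofarabine libraries, with log2 fold changes of 0.13 (SE 0.065, edgeR adjusted p = 0.359) and 0.13 (SE 0.065, edgeR adjusted p = 0.392). NARS, the asparaginyl-tRNA synthetase, came next with 318 CPM in C0 and 339 CPM in C1, against 319 CPM in V0 and 310.2 CPM in V1. C0 lay between the DMSO libraries there (log2 fold change 0.065, SE 0.066).

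The other 12 synthetases lay between −0.088 for VARS, the valyl enzyme, and 0.050 for TARS, the threonyl enzyme. GARS, for glycine, was the closest to no difference, with a log2 fold change of 0.0047 and a 95% interval of −0.13 to 0.14. EPRS, a fused enzyme for glutamate and proline, had 0.033, IARS for isoleucine 0.020 and HARS for histidine −0.013. CARS for cysteine had −0.020, YARS for tyrosine −0.034 and SARS for serine −0.035. MARS for methionine had −0.046, KARS for lysine −0.056 and LARS for leucine −0.070. None of these 12 had an adjusted p under 0.622.

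**Figure D3:**
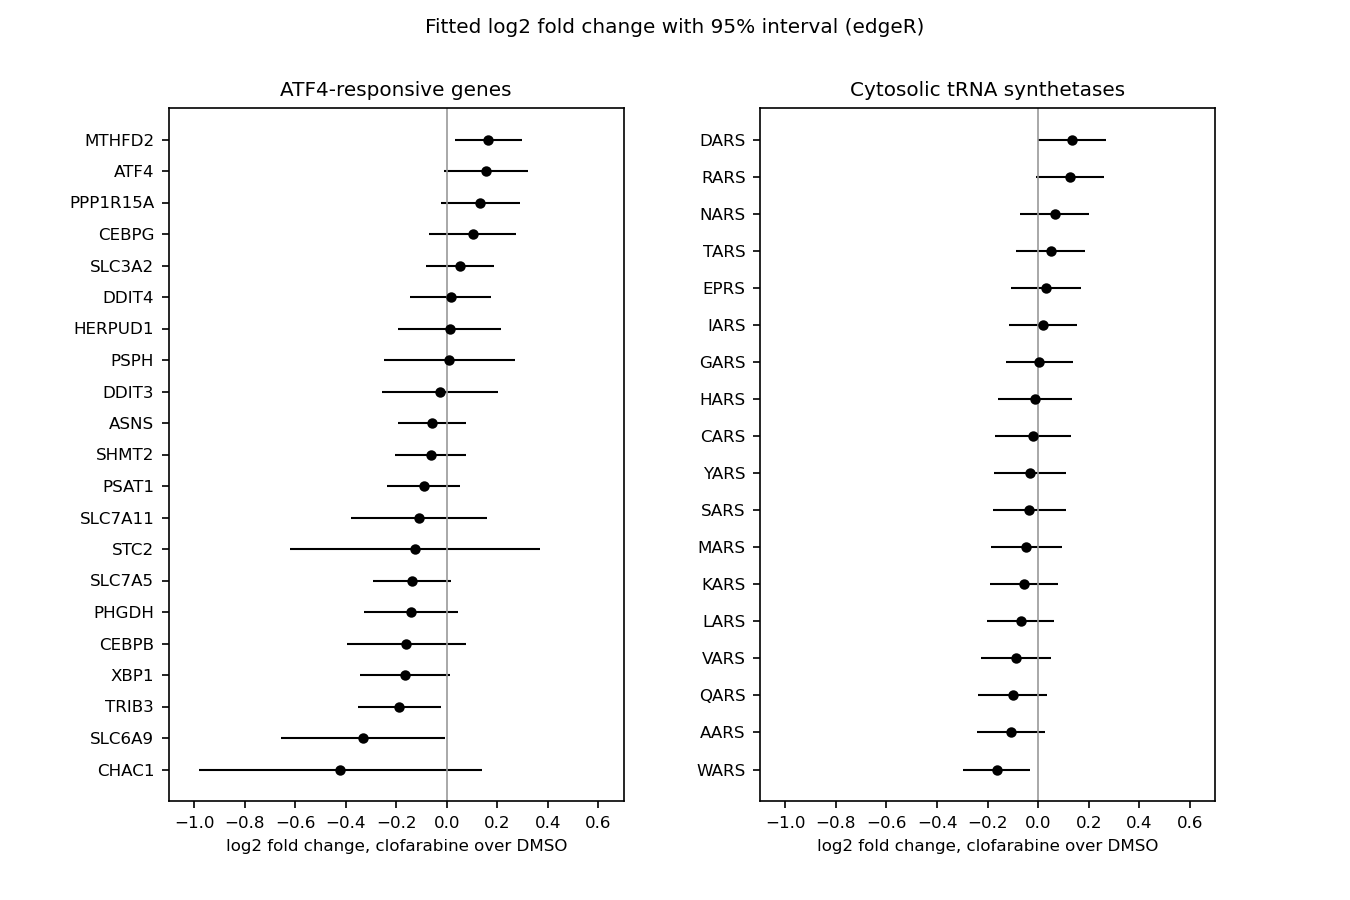
Fitted log2 fold change, clofarabine over DMSO, of each tested member (points) with its 95% interval (lines), sorted within each class. The synthetase intervals lie between −0.30 and 0.27, and CHAC1, STC2 and SLC6A9, which have the fewest fragments, have the widest intervals.

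In human cells 8 of these enzymes (EPRS, IARS, LARS, MARS, QARS, RARS, KARS and DARS) sit in the multisynthetase complex with the scaffold proteins AIMP1, AIMP2 and EEF1E1. This split was added after the values were seen. Within the complex 4 of 8 enzymes had a positive log2 fold change, with a median of −0.013, and outside it 3 of 10, with a median of −0.027. Of the phenylalanyl subunits FARSA and FARSB and these scaffolds, 0 of 5 were called by edgeR, against 2.57% of all genes. Of the same 5, 2 had an unadjusted p under 0.05, against 14.2%. AIMP1 had the smallest p, with 89.6 CPM in C0 and 93.7 CPM in C1, against 79.8 CPM in V0 and 78.9 CPM in V1 (log2 fold change 0.21, SE 0.077, edgeR adjusted p = 0.182).

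Clofarabine and DMSO libraries were fully separate for 19 of the 39 tested members, 6 higher and 13 lower in clofarabine, against 43.2% of all tested genes (22.0% higher and 21.3% lower). That was 9 of 21 ATF4-responsive genes (42.9%) and 10 of 18 synthetases (55.6%). Differences inside a group were of the same order as those between groups. The median absolute log2 difference of the ATF4-responsive genes was 0.10 between C1 and C0 and 0.10 between V1 and V0. For the synthetases it was 0.063 between C1 and C0 and 0.040 between V1 and V0. V1 was above V0 for 15 of 21 ATF4-responsive genes, among them 5 of 6 genes of amino acid synthesis, and for 10 of 18 synthetases. Likewise C1 was above C0 for 15 of 21 ATF4-responsive genes, 5 of 6 of amino acid synthesis, and 14 of 18 synthetases.

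Per transcript length, on the authors' FPKM scale, ATF4 was the highest ATF4-responsive gene, at 307 FPKM in C0 and 373 FPKM in C1, against 294 FPKM in V0 and 318 FPKM in V1. SLC3A2 followed at 137 to 147 FPKM over the 4 libraries. ASNS at 120.0 to 135 FPKM, MTHFD2 at 111 to 126 FPKM and SHMT2 at 112 to 127 FPKM came next, with overlapping ranges. STC2 and SLC7A11 were the lowest of those tested, at 0.943 to 1.54 FPKM and 1.99 to 2.24 FPKM. Among the synthetases SARS was highest in every library, at 302 to 337 FPKM. KARS at 220.0 to 232 FPKM and TARS at 208 to 221 FPKM overlapped. CARS at 44.6 to 47.2 FPKM, HARS at 54.2 to 56.8 FPKM and LARS at 62.2 to 66.9 FPKM closed the order without overlap. The levels of the synthetases thus differed far more between enzymes than between treatments.

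**Figure D4:**
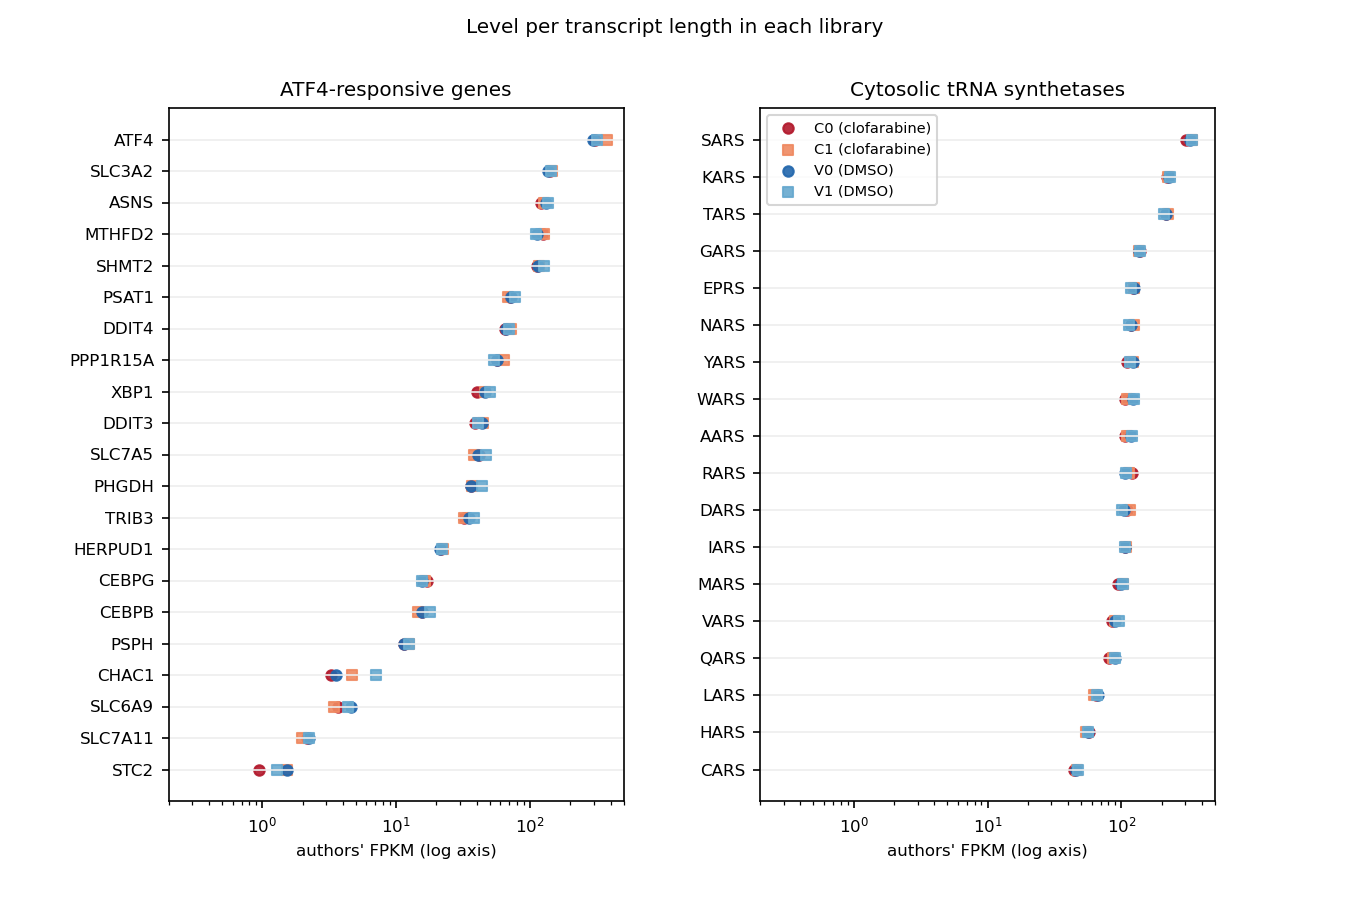
Level of each tested member in each library on the authors' FPKM scale (horizontal log axis), ordered by the mean over the 4 libraries within each class. Red and orange are C0 and C1 (clofarabine), dark and light blue V0 and V1 (DMSO). ATF4 and SARS lead their classes, and the 4 libraries nearly coincide for most genes.

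Members with and without TGATGNAAN in their promoter windows were set side by side, with no test of the difference. The 12 with the element, all tested, had log2 fold changes from −0.42 to 0.10 with a median of 0.0081. The 20 tested members with a window and no match had values from −0.33 to 0.17 with a median of −0.074. Among the ATF4-responsive genes the medians were 0.012 for 5 with the element and −0.13 for 13 without it. Among the synthetases they were 0.0047 for 7 with the element and −0.035 for 7 without it.

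Around ATF4, the eIF2 kinases with their regulators GCN1L1 and IMPACT, the eIF2 subunits and the eIF2B subunits were likewise not called. The 14 genes of that list gave 0 calls by edgeR, against 2.57% of all genes. Among them 2 had an unadjusted p under 0.05, a share near the 14.2% of all genes. Their median log2 fold change was 0.027. EIF2S2, the beta subunit of eIF2, had the smallest p (log2 fold change 0.14, SE 0.065, edgeR adjusted p = 0.321). Among 29 tested further genes linked to ATF4, out of 31 listed, 1 was called as lower and none as higher, against 1.03% and 1.54% of all tested genes. The log2 fold change was positive for 16 of the 29 and negative for 13. The called gene was TXNIP, an inhibitor of thioredoxin and glucose uptake that is also controlled by glucose-sensing factors. It stood at 129 CPM in C0 and 129 CPM in C1, against 168 CPM in V0 and 159 CPM in V1. The fitted log2 fold change stood at −0.34 (SE 0.068, edgeR adjusted p = 0.0056). The call was lost without V0 (log2 fold change −0.31, edgeR adjusted p = 0.0934) and on the log2(FPKM + 1) scale (limma adjusted p = 0.112), and over all alternatives its adjusted p ran from 3.6e-06 to 0.328. At an unadjusted p under 0.05, 6 of the 29 had a positive log2 fold change, against 8.17% of all genes. With TXNIP counted, 2 of the 29 had a negative one, against 6.06%. The 6 were ATF3, ATF5, SERTAD1, SQSTM1, MAP1LC3B and ATG12, and the other lower gene was ALDH18A1, none of them called. The median log2 fold change of the list was 0.0076.

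By RefSeq's names, 14 members have pseudogene copies, among them ATF4, ASNS, PSAT1, MTHFD2, KARS and WARS, so the share of fragments given to these genes may be uncertain. The same limit holds for the 6 members that overlap another coding gene there, which are DDIT3, MARS, SHMT2, MTHFD2, SLC6A9 and YARS.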

How the data were processed

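RNA-seq was analysed for 2 clofarabine and 2 DMSO samples of K562 cells. Per the submitters' processing notes, the authors used cutadapt 1.5, TopHat2 2.0.13 and Cuffdiff 2.2.1 with hg19. No source used here gives the gene annotation or the strand setting. The deposited table holds the authors' estimated counts of fragments per gene and library, their scaled fragments (a signal equal to the counts times 1 factor per library) and their FPKM. Labels do not tie C0, C1, V0 and V1 to sample titles. The chi-square of the counts per degree of freedom was 6.87 between the clofarabine libraries and 2.82 between the DMSO libraries, and none were combined.

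Counts were rounded, which altered 0 member values. The filter was edgeR's filterByExpr (minimum count 10), the scaling TMM, and the test edgeR's quasi-likelihood test, fitted on treatment alone and adjusted over all 11761 genes (version 4.0.16 under R 4.3.3). The common biological coefficient of variation was 6.01%. SE is the log2 fold change over the square root of F, and 95% intervals use it with the t distribution. DESeq2 1.42.0 and limma 3.58.1 served as alternatives. Motifs and names came from RefSeq (GRCh38.p14). No hg19 coordinates are given. Scripts were tested on simulated data.

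The members and lists were chosen with earlier results of these data known. The naming rule gives every library's value for called members, for ATF4, DDIT3, DDIT4, ASNS, CHAC1, TRIB3 and PPP1R15A, and for the 3 synthetases of highest and of lowest log2 fold change. From further lists it names called members or that of smallest p. Other genes of those lists given with an unadjusted p were named after their values were seen. Values of other members shown by library were added after they were seen. Alternatives were DESeq2's size factors, library size only, no filter, DESeq2, limma-voom, FPKM with pseudocounts of 1 and 0.1 and a minimum of 1 or none, a length trend removed (loess, span 0.3), thinning to 8370550 fragments, each library left out, and the library number as a replicate block.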

Additional observations from a re-analysis of the deposited data

How the results depend on the processing

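No synthetase was called under any of the 15 alternatives, and no ATF4-responsive gene under 14 of them. The exception is ATF4 without C0, so that 0 to 1 of these genes were called with a library left out. With a library left out, the lone sample of its group was taken to have the spread of the other group. The number called over all genes was 130 to 636 with a library left out, 166 with DESeq2, 481 with a length trend removed, 478 with no filter, 796 with the replicate block, 47 on log2(FPKM + 1) and on log2(FPKM + 0.1), and 2 on log2(FPKM + 1) with no minimum. Rises made up 59.9% of calls, but 45.9% with library size only, 31.9% on log2(FPKM + 1), 34.0% on log2(FPKM + 0.1), 71.4% without C0 and 43.8% without V1. Same-numbered libraries did not deviate together over the tested genes (correlation −0.0038). This single value cannot tell whether the numbers pair libraries for some genes. With the block the smallest edgeR adjusted p of a member was 0.0720.

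The synthetase median was −0.064 with library size only, which moved the median of all genes to −0.035, and −0.054 to 0.010 with a library left out. The ATF4-responsive median stayed between −0.10 and −0.0037.

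Every sign that turned belonged to a value not called in either setting. With library size only the log2 fold changes were −0.022 for DDIT4, −0.026 for HERPUD1, −0.028 for PSPH, −0.0028 for EPRS, −0.031 for GARS and −0.016 for IARS. With libraries thinned to equal depth they were 8.9e-04 for DDIT3 and −0.0063 for DDIT4. Without C0 they were 0.061 for DDIT3, 0.15 for STC2, 0.011 for CARS, 0.010 for MARS, 0.037 for SARS and 0.036 for YARS. Without C1 they were −0.077 for DDIT4, −0.022 for HERPUD1, −0.065 for PSPH and 0.020 for HARS. Without V0 they were 0.0039 for DDIT3, −0.019 for DDIT4, −0.0092 for HERPUD1, −0.049 for PSPH, −0.0029 for GARS and 0.0065 for YARS. Without V1 they were 0.19 for CHAC1, 0.0052 for PHGDH and −0.015 for EPRS.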

Other observations

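Genes that neighbour this response were looked at as further lists. Of 17 mitochondrial tRNA synthetases, which charge tRNAs inside mitochondria, 0 were called by edgeR, against 2.57% of all genes. An unadjusted p under 0.05 was found for 3 of them, against 14.2% of all genes. Of these 17 genes, 14 had a negative and 3 a positive log2 fold change, against 50.6% positive over all genes. The median was −0.094, beside 0.0020 for all genes. NARS2 and CARS2 of this list are also counted among the further genes linked to ATF4 above. MARS2, the methionyl enzyme, had the smallest p, with 22.3 CPM in C0 and 17.96 CPM in C1, against 28.0 CPM in V0 and 24.1 CPM in V1 (log2 fold change −0.38, SE 0.14, edgeR adjusted p = 0.179). It was called without C0 (log2 fold change −0.53, edgeR adjusted p = 0.0217) and with the library number as a block (edgeR adjusted p = 0.0407), and over all alternatives its adjusted p ran from 0.0217 to 0.593.

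Of 18 chaperones and regulators of the unfolded protein response of the endoplasmic reticulum, 0 were called by edgeR, against 2.57% of all genes. An unadjusted p under 0.05 was found for 1 of them, against 14.2% of all genes. Of these 18 genes, 12 had a positive log2 fold change, against 50.6% of all genes, and the median was 0.051. EDEM1, which guides misfolded glycoproteins to degradation, had the smallest p, at 61.3 CPM in C0 and 62.4 CPM in C1, against 53.9 CPM in V0 and 55.1 CPM in V1 (log2 fold change 0.18, SE 0.084, edgeR adjusted p = 0.322).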
